A study of Mus musculus with 38 samples.

Results

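The genes described here are 9 leukocyte membrane genes measured in the mouse hippocampus: the signalling lymphocyte activation molecule (SLAM) receptors Ly9, Cd84, Cd48 and Slamf9, the tetraspanins Cd53 and Cd37, and Ptprc, Cd52 and Cd180. They were chosen by symbol for the patterns that Ly9 and Cd52 show over the 8 groups of these same mice, so that their differences between groups are given as descriptions with intervals and without p-values. All 9 are among the 48709 genes counted, and all 9 passed the filter on low counts in every comparison.

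The data are hippocampal RNA-seq libraries of 38 mice on a C57BL/6 background, either wild-type (WT) or APPPS1ΔE9. APPPS1ΔE9 mice carry a Swedish mutant amyloid precursor protein and a presenilin 1 that lacks an exon, both expressed from the prion protein promoter, and develop amyloid plaques. Each genotype received chow with anle138b, a small molecule directed at protein aggregates, or placebo chow. In the pre-plaque group, treatment began before plaques form and tissue was taken at 6 months, from 4 mice in each of the 4 groups. For the post-plaque group, treatment began after the onset of plaques and tissue was taken at 10 months. In this cohort 5 WT mice received placebo and 5 received anle138b, while for APPPS1ΔE9 these numbers were 5 and 7.

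SLAM receptors are immunoglobulin-type proteins of blood cells, and most of them bind a second copy of themselves on the neighbouring cell and signal through small SH2 adaptors. CD45, the product of Ptprc, is the tyrosine phosphatase of the leukocyte surface, while tetraspanins gather other membrane proteins into domains. Most of these genes are used widely by leukocytes, and several of them are also found in microglia, the resident macrophages of the brain, which gather around amyloid plaques. In whole tissue, more cells of a type and more RNA per cell cannot be told apart.

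Total counts lay between 15847985 and 31895808 per mouse, with a median of 24530658. App is counted as the mouse gene of the amyloid precursor protein. It was higher in APPPS1ΔE9 mice by a log2 fold change of 1.26 ± 0.07 (SE) in the pre-plaque comparison with placebo (edgeR adjusted p = 1.59e-06). The titles of the 4 pre-plaque WT mice on placebo name WT, whereas their genotype label names the transgene. They were used as WT, and their App level was 1623 to 1799 CPM (counts scaled to a common library total), against 1629 to 1719 CPM in pre-plaque WT mice on anle138b. The study describes male mice, yet 12 of the 38 had a summed level of 4 Y-linked genes of at most 1.89 CPM, against at least 169 CPM in the others. These 12 were 11 WT mice and 1 anle138b-treated APPPS1ΔE9 mouse of the post-plaque group. The WT mice were 3 of 4 on placebo and 2 of 4 on anle138b in the pre-plaque group. In the post-plaque group they were 3 of 5 on either chow. Sequencing lanes followed the groups almost completely, so lane and group cannot be told apart.

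Choroid plexus markers also differed between mice, and the reason was not tested. The summed level of 6 choroid plexus markers, among them Ttr, was above 1000 CPM in 3 of 4 pre-plaque WT mice on either chow and in 3 of 4 pre-plaque APPPS1ΔE9 mice on anle138b, but in 1 of 4 on placebo. In the post-plaque group, 1 APPPS1ΔE9 mouse on anle138b was above that level. Fits with these markers as a term were added after the data were seen, and their values are given beside the pre-plaque results. The term is whether a mouse was above 1000 CPM, so placebo-treated pre-plaque APPPS1ΔE9 replicate 3, at 696 CPM, counted as below.

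Ly9, Cd48, Cd84, Slamf9 and Ptprc lie on chromosome 1. By GENCODE M21 on GRCm38, Ly9 lies at 171588624 to 171607410 on the minus strand, Cd48 at 171682009 to 171705258, Cd84 at 171839697 to 171890718 and Slamf9 at 172475358 to 172478575, these 3 on the plus strand. They belong to a cluster of 9 SLAM genes that spans 1031376 bases and holds 28 protein-coding genes. Ptprc lies at 138062861 to 138175708 on the same chromosome, outside the cluster. Cd53 is on chromosome 3 (106759921 to 106790149), Cd52 on chromosome 4 (134082448 to 134095082), Cd37 on chromosome 7 (45233632 to 45239115) and Cd180 on chromosome 13 (102693558 to 102739629). The strand setting of the counting is not given in the sources used here, which matters for 3 of these genes, because exons of a gene on the opposite strand overlap theirs: 172 bases of Cd52 with Crybg2, 182 of Cd180 with Mast4 and 13 of Cd37 with Tead2. Reads in these stretches cannot be assigned with certainty. In the placebo-treated post-plaque comparison, the log2 fold changes of Crybg2, Mast4 and Tead2 were 0.38 ± 0.32, -0.13 ± 0.10 and -0.03 ± 0.21 (SE), and none of the 3 was called.

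Promoters of 3 SLAM genes and of Cd53 are shown because these genes were higher together in APPPS1ΔE9 mice. They were searched for GAGGAA, the core bound by the myeloid factor PU.1. Each runs 5′ to 3′ from 250 bases before to 50 bases after a RefSeq start (GRCm38.p6), and capitals mark GAGGAA on the strand shown or TTCCTC, its reverse complement.
Cd84 (chr1:171839447-171839746, plus strand): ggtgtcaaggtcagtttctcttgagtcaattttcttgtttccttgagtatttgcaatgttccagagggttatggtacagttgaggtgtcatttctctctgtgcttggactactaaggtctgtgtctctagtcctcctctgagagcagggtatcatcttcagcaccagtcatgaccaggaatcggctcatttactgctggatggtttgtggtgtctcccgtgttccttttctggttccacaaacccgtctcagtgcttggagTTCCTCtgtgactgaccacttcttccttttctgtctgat
Slamf9 (chr1:172475110-172475409, plus strand): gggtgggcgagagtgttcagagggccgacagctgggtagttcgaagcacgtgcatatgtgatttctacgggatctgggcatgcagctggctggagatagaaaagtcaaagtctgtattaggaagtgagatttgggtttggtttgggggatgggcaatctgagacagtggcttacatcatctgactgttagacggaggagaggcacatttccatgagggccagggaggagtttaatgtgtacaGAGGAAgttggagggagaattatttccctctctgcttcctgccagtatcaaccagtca
Cd48 (chr1:171681742-171682041, plus strand): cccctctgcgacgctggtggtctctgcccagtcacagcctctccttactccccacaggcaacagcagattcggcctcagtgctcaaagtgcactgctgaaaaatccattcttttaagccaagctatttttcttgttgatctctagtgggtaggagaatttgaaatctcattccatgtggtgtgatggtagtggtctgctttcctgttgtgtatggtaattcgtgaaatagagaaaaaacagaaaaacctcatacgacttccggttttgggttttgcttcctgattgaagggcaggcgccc
Cd53 (chr3:106790100-106790399, minus strand): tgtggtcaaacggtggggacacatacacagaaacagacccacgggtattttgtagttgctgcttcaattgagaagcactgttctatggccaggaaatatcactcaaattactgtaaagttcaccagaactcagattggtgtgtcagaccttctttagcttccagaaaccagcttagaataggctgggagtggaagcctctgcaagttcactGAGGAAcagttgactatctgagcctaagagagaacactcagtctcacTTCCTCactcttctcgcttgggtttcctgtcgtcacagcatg
The match began 12 bases into the transcript in Cd84, 8 bases before the start in Slamf9, and 39 bases before and 9 bases into the transcript in Cd53. No match was found in the Cd48 window. Of the 7 genes with a window, 5 held a match in at least 1 window (Cd84, Slamf9, Cd53, Cd37 and Ptprc), and Cd48 and Cd180 held none. Among all 27025 genes with windows the share was 31.3%, and among all 32851 windows it was 28.3%. A match of 6 letters is a description of the sequence and not evidence of binding. Windows were matched for all genes here except Ly9 and Cd52.

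These are low-abundance transcripts in whole hippocampus. Per kilobase of exon, Cd53 had the highest mean level over the 38 mice (4.88 CPM per kb), followed by Cd37 (1.91), Cd52 (1.47), Cd180 (1.01), Cd48 (0.989), Slamf9 (0.890), Cd84 (0.587), Ly9 (0.369) and Ptprc (0.353 CPM per kb). Ly9 rested on 4 to 83 reads per mouse and Cd52 on 7 to 101, while Cd53 reached 345.

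**Figure D1:**
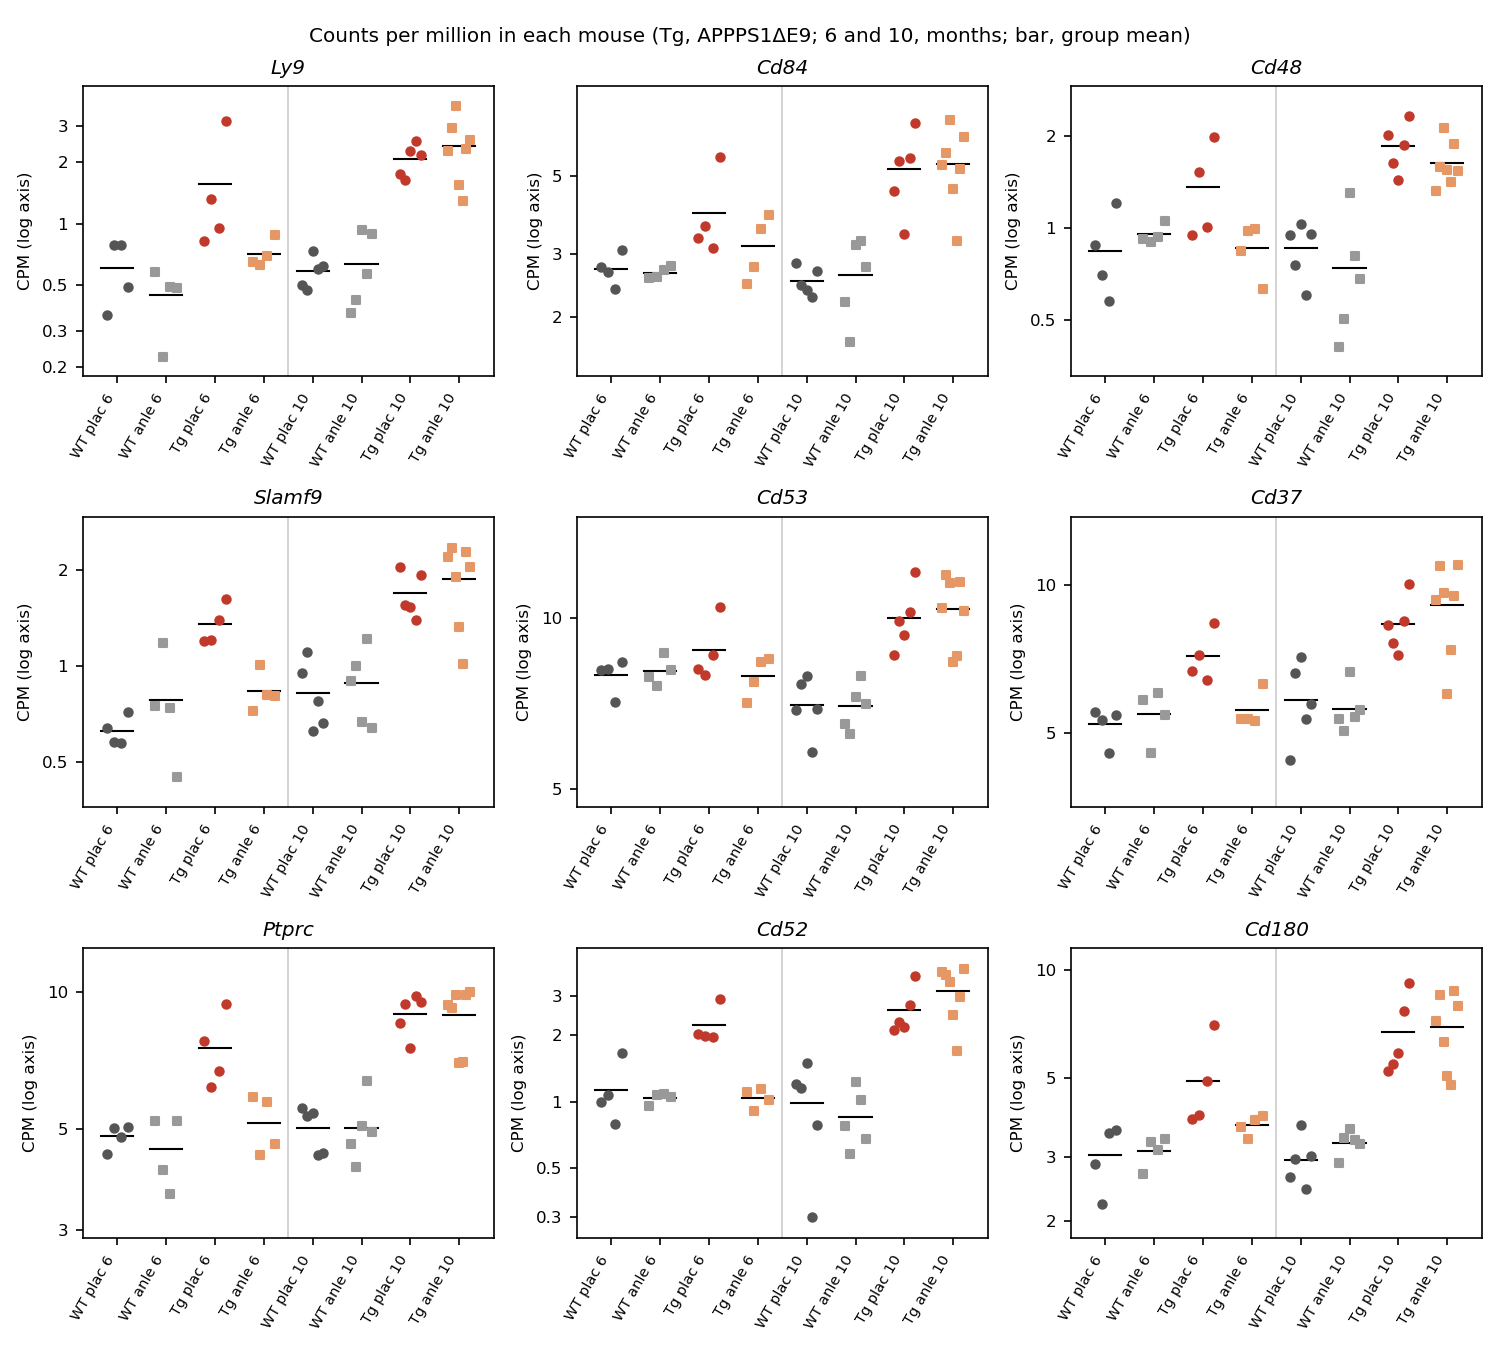
Level of each of the 9 genes in CPM (log axis) in each of the 38 mice, by genotype (Tg, APPPS1ΔE9), chow (plac, placebo; anle, anle138b) and age in months. Points are mice, with squares for anle138b, and bars are group means; at 10 months Ly9 was at 1.29 to 3.75 CPM in APPPS1ΔE9 mice and at most 0.926 CPM in WT mice.

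Ly9, a SLAM receptor that binds itself, had the largest log2 fold change of the 9 between genotypes in placebo-treated post-plaque mice. Cd52, a short glycoprotein held to the membrane by a lipid anchor, had nearly the same value as Ly9 in post-plaque mice on anle138b. In placebo-treated post-plaque mice, Ly9 stood at 0.475, 0.505, 0.602, 0.622 and 0.733 CPM in the 5 WT mice. In the 5 placebo-treated APPPS1ΔE9 mice it stood at 1.63, 1.75, 2.16, 2.27 and 2.54 CPM. The 2 groups did not overlap, and the log2 fold change was 1.80 ± 0.19 (SE), with a 95% interval from 1.38 to 2.21.

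After anle138b in the post-plaque group, Ly9 stood at 0.366, 0.424, 0.567, 0.893 and 0.926 CPM in the 5 WT mice and at 1.29, 2.31 and 3.75 CPM as the lowest, median and highest of 7 APPPS1ΔE9 mice. Here too every APPPS1ΔE9 mouse was above every WT mouse, with a log2 fold change of 1.90 ± 0.31 (SE, 95% interval 1.22 to 2.58). The lowest APPPS1ΔE9 mouse was also the lowest of its group for Cd84, Slamf9, Cd52 and Cd180, and it was the post-plaque mouse with the high choroid plexus markers.

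Cd52 in placebo-treated post-plaque mice stood at 0.301, 0.788, 1.15, 1.20 and 1.503 CPM in WT and at 2.12, 2.18, 2.29, 2.74 and 3.72 CPM in APPPS1ΔE9. The groups were apart, but the WT mice spread widely, and the log2 fold change of 1.40 ± 0.33 (SE, 95% interval 0.68 to 2.12) was not called by edgeR. It was called by DESeq2 and with all 4 groups of the cohort in a single edgeR fit. On anle138b the 5 WT mice were at 0.578, 0.680, 0.774, 1.01 and 1.22 CPM, and the 7 APPPS1ΔE9 mice had a lowest, median and highest value of 1.70, 3.48 and 3.96 CPM. That difference was 1.89 ± 0.25 (SE, 95% interval 1.35 to 2.43).

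**Figure D2:**
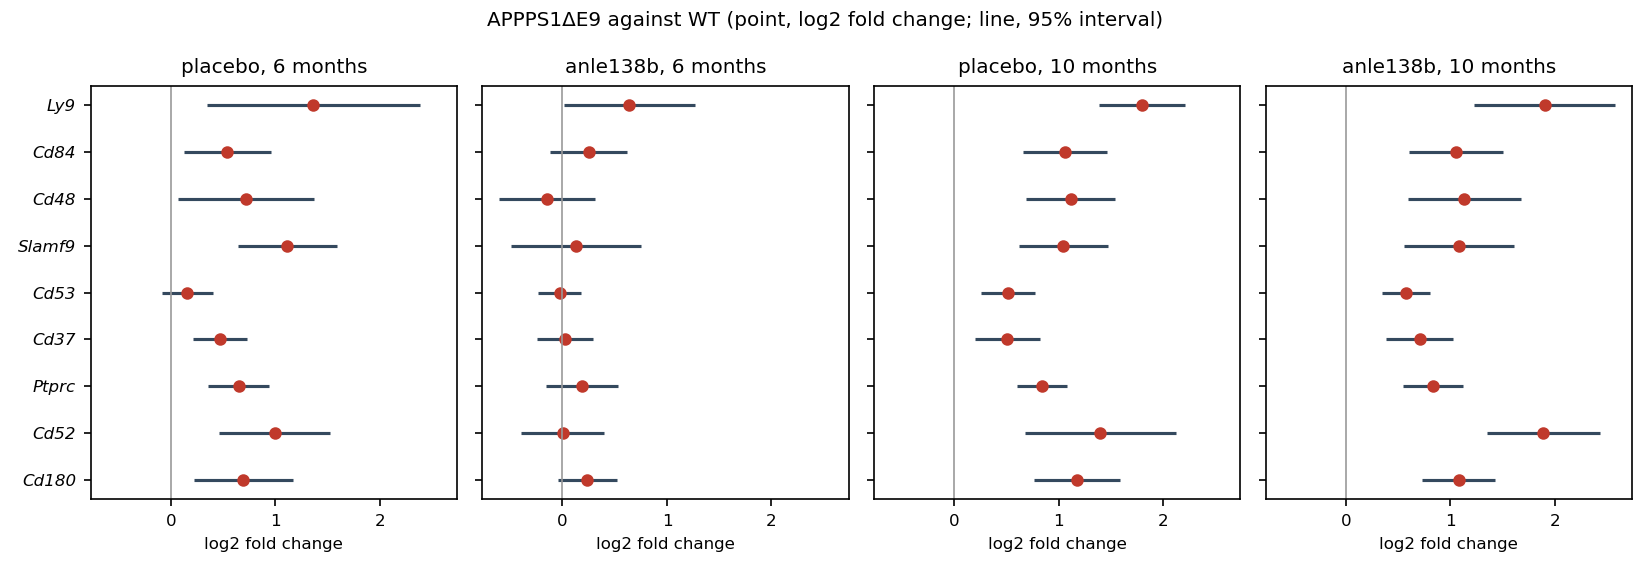
Log2 fold change of APPPS1ΔE9 against WT for the 9 genes in the 4 genotype comparisons, with points for the estimate and lines for the 95% interval. All 9 intervals lay above 0 in both post-plaque comparisons, 8 in placebo-treated pre-plaque mice and 1 in anle138b-treated pre-plaque mice.

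The remaining SLAM receptors were about 2 times as high in post-plaque APPPS1ΔE9 as in WT mice. Cd48, the ligand of the natural killer receptor 2B4, had a level of 0.856 ± 0.175 CPM (SD, n = 5) in placebo-treated WT and 1.85 ± 0.344 CPM (SD, n = 5) in placebo-treated APPPS1ΔE9 mice, a log2 fold change of 1.12 ± 0.19 (SE). Cd84, which like Ly9 binds itself, was at 2.53 ± 0.231 and 5.23 ± 1.36 CPM in the same groups, and its log2 fold change was 1.06 ± 0.18 (SE). Slamf9, a further member of the family, was at 0.823 ± 0.203 and 1.69 ± 0.281 CPM (log2 fold change 1.04 ± 0.19). On anle138b the 3 log2 fold changes were 1.13 ± 0.25, 1.05 ± 0.21 and 1.09 ± 0.24 for Cd48, Cd84 and Slamf9.

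Cd180, a relative of the Toll-like receptors that needs the partner MD-1, had a level of 2.96 ± 0.477 CPM (SD, n = 5) in placebo-treated WT and 6.70 ± 1.71 CPM (SD, n = 5) in placebo-treated APPPS1ΔE9 mice. The log2 fold change was 1.18 ± 0.19 (SE), and 1.08 ± 0.16 on anle138b. Ptprc was at 5.03 ± 0.569 and 8.97 ± 0.921 CPM with placebo, a log2 fold change of 0.84 ± 0.11 (SE), and 0.83 ± 0.13 on anle138b. The tetraspanins differed least, with log2 fold changes of 0.51 ± 0.12 for Cd53 and 0.51 ± 0.14 for Cd37 with placebo, and 0.58 ± 0.11 and 0.71 ± 0.15 on anle138b.

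A gene was called when the Benjamini-Hochberg adjusted p of edgeR's quasi-likelihood test over all genes was under 0.1. In placebo-treated post-plaque mice, 6 of the 9 genes were called higher (Ly9, Cd84, Cd48, Slamf9, Ptprc and Cd180), where 0.324% of all tested genes were. On anle138b, all 9 were called higher, against 0.694% of all genes. The median log2 fold change of the 9 was 1.06 with placebo and 1.08 on anle138b, and that of all tested genes was 0.00 in both. All 9 genes were without overlap between genotypes in placebo-treated post-plaque mice (0.966% of all genes), and 6 were on anle138b (Ly9, Cd48, Cd53, Ptprc, Cd52 and Cd180, where 0.752% of all genes were). Since the genes were selected on these mice, nothing is read from these counts.

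The number called depended on single mice and on the sex term. Leaving out placebo-treated APPPS1ΔE9 replicate 4, or placebo-treated WT replicate 1, 4 or 5, left 3 called in the placebo comparison (Ly9, Ptprc and Cd180), and these fits called 37 to 42 of all genes, where 55 were called with every mouse. On anle138b, 4 remained called without WT replicate 1 or 2 (Ly9, Ptprc, Cd52 and Cd180), with 69 and 63 of all genes called, and 5 without WT replicate 5 or APPPS1ΔE9 replicate 1, 2 or 7, with 81 to 91 of all genes called, where 124 were called with every mouse. With Y-linked expression as a term, 1 gene was called with placebo (Ly9, log2 fold change 1.90 ± 0.28) and 8 on anle138b, with medians of 1.02 and 1.08. Over all genes this fit called 15 of 16971 with placebo and 299 of 17151 on anle138b.

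Markers of lymphocytes were low. Over the 38 mice, Cd3e had a median of 0.0414 CPM and Ms4a1 of 0.0406 CPM, against 0.807 CPM for Ly9. The summed levels of 7 T and NK cell markers, among them Cd3e and Nkg7, were at most 1.19 CPM in every mouse, and those of 5 B cell markers at most 2.86 CPM, of which Fcer2a gave a median of 1.11 CPM. Cd3e was at 0 in 12 mice and Ms4a1 in 14. In placebo-treated post-plaque mice the T and NK sum was 0.415 to 0.673 CPM in WT and 0.324 to 0.531 CPM in APPPS1ΔE9. The neutrophil sum did not exceed 5.37 CPM, and the monocyte sum did not exceed 2.75 CPM. Each of these sums adds several genes, and their highest values reach levels of single genes such as Ly9 and Cd52. In placebo-treated post-plaque APPPS1ΔE9 mice the lowest Ly9 level was 1.63 CPM. The T and NK sum was below it in these mice. Their B cell sum was 1.39 to 2.38 CPM and their neutrophil sum 0.555 to 3.39 CPM, both reaching Ly9 levels. The 7 border macrophage markers, among them Mrc1, summed to 9.50 to 23.03 CPM in placebo-treated WT and 6.50 to 14.1 CPM in placebo-treated APPPS1ΔE9 mice of the post-plaque group, and on anle138b to 6.71 to 16.2 and 6.15 to 16.4 CPM. The 5 erythroid markers, among them Hbb-bs, summed to 23.998 to 51.2 CPM in placebo-treated WT and 37.1 to 67.7 CPM in placebo-treated APPPS1ΔE9 mice, and on anle138b to 28.3 to 52.1 and 32.5 to 112.8 CPM. The part of these cells in the results was not tested. The 11 homeostatic microglial markers, among them P2ry12 and Tmem119, summed to 370.2 to 446 CPM in placebo-treated WT and 485 to 652 CPM in placebo-treated APPPS1ΔE9 mice of the post-plaque group. On anle138b the ranges were 358 to 456 CPM and 461 to 684 CPM. The 10 plaque-associated microglial markers, among them Cst7 and Itgax, summed to 145 to 179 and 220 to 362 CPM with placebo. Lpl and Axl were the most abundant of the 10, with medians over the 38 mice of 77.5 and 54.7 CPM. Cst7 and Itgax added little to the sum, with medians of 1.18 and 0.621 CPM.

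Within groups, the homeostatic microglial markers varied with most of the 9 genes and least with Slamf9, as given below. The part of either set of microglial markers in the differences was not tested. Each gene was also expressed relative to the mean log2 level of the 11 homeostatic markers in the same mouse. That mean was higher by 0.36 with placebo and by 0.45 on anle138b in post-plaque APPPS1ΔE9 mice. With placebo the difference in log2 CPM fell from 1.69 to 1.33 for Ly9, from 1.46 to 1.09 for Cd52 and from 1.14 to 0.78 for Cd180. That of Ptprc went from 0.83 to 0.47. The ratios of Cd53 and Cd37 differed by 0.15 and 0.16. Between genotypes the ratios of Cd84, Slamf9, Cd53 and Cd37 overlapped with placebo. On anle138b the ratios of all genes but Ly9 and Cd52 overlapped. This step takes the same amount from every gene of a comparison, so the order of the genes is that of their differences before it.

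**Figure D3:**
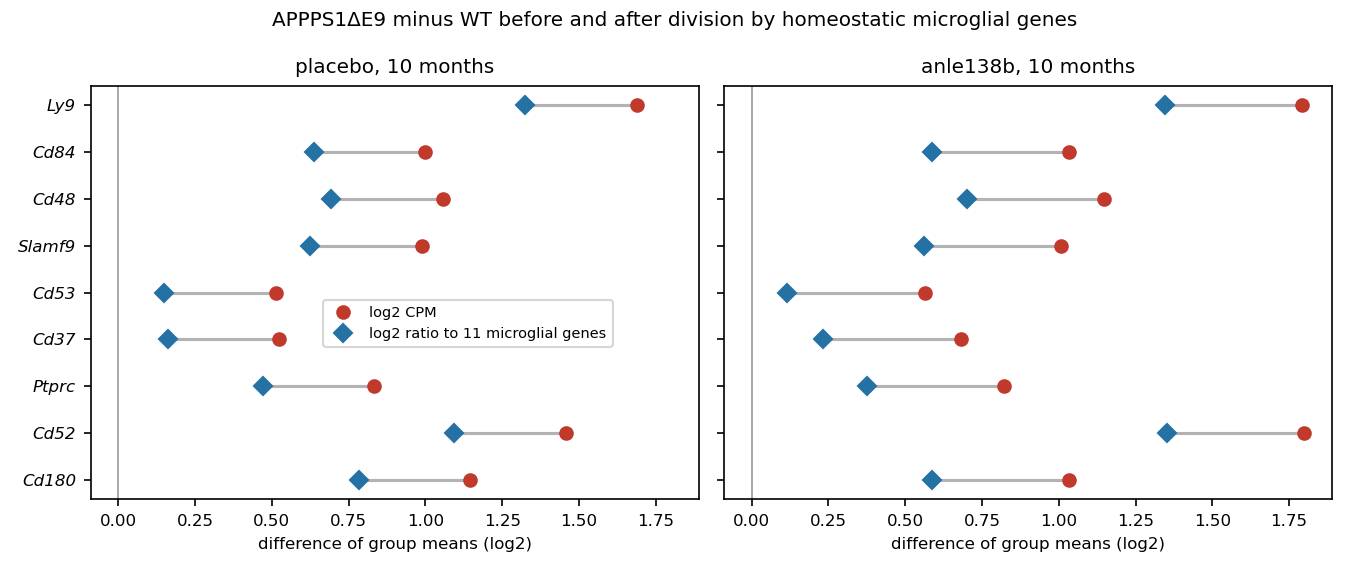
Difference of group means between APPPS1ΔE9 and WT in post-plaque mice, in log2 CPM (circles) and as the log2 ratio to the mean of 11 homeostatic microglial genes (diamonds). Every diamond was above 0, and within a panel each lies the same distance to the left of its circle (0.36 with placebo, 0.45 on anle138b). Spread is not shown, and the ratios of several genes overlapped between genotypes.

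In the pre-plaque group the same 9 genes were compared at the younger age. Ly9 in placebo-treated WT mice stood at 0.360, 0.492, 0.784 and 0.789 CPM and in placebo-treated APPPS1ΔE9 mice at 0.825, 0.948, 1.32 and 3.15 CPM. The groups did not overlap, yet the highest value was more than 2 times the next one. The mouse with 3.15 CPM (replicate 4) had the highest level of its group in all 9 genes, and its homeostatic microglial sum was 579 CPM against 459 to 507 CPM in the other 3. The log2 fold change of Ly9 was 1.36 ± 0.46 (SE, 95% interval 0.34 to 2.38) with that mouse and 0.77 ± 0.32 (0.08 to 1.46) without it.

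Cd52 stood at 0.789, 1.001, 1.07 and 1.65 CPM in pre-plaque WT mice on placebo and at 1.95, 1.99, 2.02 and 2.92 CPM in APPPS1ΔE9 mice on placebo. Again no APPPS1ΔE9 mouse was within the WT range, and the log2 fold change was 0.99 ± 0.25 (SE, 95% interval 0.46 to 1.52), or 0.83 ± 0.25 without replicate 4. Slamf9 stood at 0.574 to 0.715 CPM and at 1.20 to 1.62 CPM in these groups (log2 fold change 1.11 ± 0.22). Ptprc differed by 0.65 ± 0.14, Cd180 by 0.69 ± 0.22 and Cd53 by 0.16 ± 0.11, the last with an interval across 0.

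None of the 9 genes was called in that comparison, in which 0.0715% of all genes were called higher, and 1858 genes had an unadjusted p under 0.05. DESeq2 called 1 of the 9 (Ptprc) and 91 of 31072 genes. Without placebo-treated APPPS1ΔE9 replicate 1, edgeR called 2 (Slamf9 and Ptprc) and 205 of 16930 genes, where it called 12 with every mouse. The median log2 fold change of the 9 was 0.69, against 0.00 over all genes, and 7 of the 9 were without overlap (2.5% of all genes). With the choroid plexus markers as a term, the median was 0.47 and 4 of 9 intervals lay above 0 (Slamf9, Cd37, Ptprc and Cd52), where 8 did without it. The value of Cd48 went from 0.72 to 0.35. Y-linked expression was missing in 3 of 4 placebo-treated WT mice and 0 of 4 placebo-treated APPPS1ΔE9 mice, so it largely followed genotype. With Y-linked expression as a term, edgeR called 4 of 16774 genes higher, and 508 had an unadjusted p under 0.05. Within the mice above 1000 CPM of choroid plexus markers, the 1 placebo-treated APPPS1ΔE9 mouse had 2.02 CPM of Cd52 and the 3 placebo-treated WT mice had 0.789 to 1.07 CPM. Below it, the 3 APPPS1ΔE9 mice had 1.95 to 2.92 CPM and the 1 WT mouse had 1.65 CPM. Cd48 and Cd53 were not apart in this way. Below 1000 CPM, Cd48 was at 0.14 log2 CPM in APPPS1ΔE9 replicate 3 and 0.39 in the WT mouse. Cd53 was at 3.03 in APPPS1ΔE9 replicate 2 and 3.10 in the WT mouse. Either side of the split leaves 1 mouse of a genotype, so nothing is read from it.

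On anle138b the pre-plaque genotypes were closer. Cd52 was at 0.957, 1.05, 1.07 and 1.08 CPM in WT and at 0.909, 1.02, 1.10 and 1.14 CPM in APPPS1ΔE9 mice, a log2 fold change of 0.00 ± 0.18 (SE, 95% interval -0.39 to 0.40). Ly9 was at 0.225, 0.488, 0.492 and 0.583 CPM in WT and at 0.627, 0.647, 0.699 and 0.876 CPM in APPPS1ΔE9, without overlap, and its log2 fold change was 0.64 ± 0.29 (0.01 to 1.27). The median of the 9 was 0.13, none was called (0.0352% of all genes were called higher, and 961 had an unadjusted p under 0.05; DESeq2 also called none of the 9), and 2 did not overlap, Ly9 and Cd180 (1.77% of all genes). With the choroid plexus markers as a term, Ly9 was at 0.64 ± 0.28 and Cd52 at 0.00 ± 0.19, and the median was 0.15.

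The effect of anle138b within a genotype was examined next. In pre-plaque APPPS1ΔE9 mice, where both groups carry the transgenes, all 9 values were lower on anle138b than with placebo, with a median log2 fold change of -0.56. Cd52 went from 2.22 ± 0.469 to 1.04 ± 0.103 CPM (SD, n = 4 each), a log2 fold change of -1.10 ± 0.19 (SE, 95% interval -1.52 to -0.68). Ly9 went from 1.56 ± 1.08 to 0.712 ± 0.113 CPM (SD, n = 4 each), which is a difference of -1.14 ± 0.41 with placebo-treated replicate 4 and -0.55 ± 0.26 without it, and in the latter case the interval (-1.12 to 0.02) reached 0.

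Ptprc differed by -0.56 ± 0.15, Slamf9 by -0.69 ± 0.20 and Cd37 by -0.37 ± 0.12 in this comparison. The values of Cd52, Slamf9, Ptprc and Cd37 did not overlap between chows, as for 3.33% of all genes in that direction. None of the 9 was called (0.0529% of all genes were), and 2233 genes had an unadjusted p under 0.05. DESeq2 called Ptprc and Cd52 and 208 of 31380 genes. Without placebo-treated replicate 1, edgeR called Cd52 and 317 of 17196 genes, where it called 9 with every mouse. With the choroid plexus markers as a term, Cd52 was at -1.04 ± 0.22 and Ptprc at -0.61 ± 0.17, whereas Ly9 (-0.72 ± 0.41), Cd48 (-0.61 ± 0.32) and Cd180 (-0.25 ± 0.19) had intervals across 0. The 2 groups were sequenced in different lanes, and lane and chow cannot be told apart here.

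**Figure D4:**
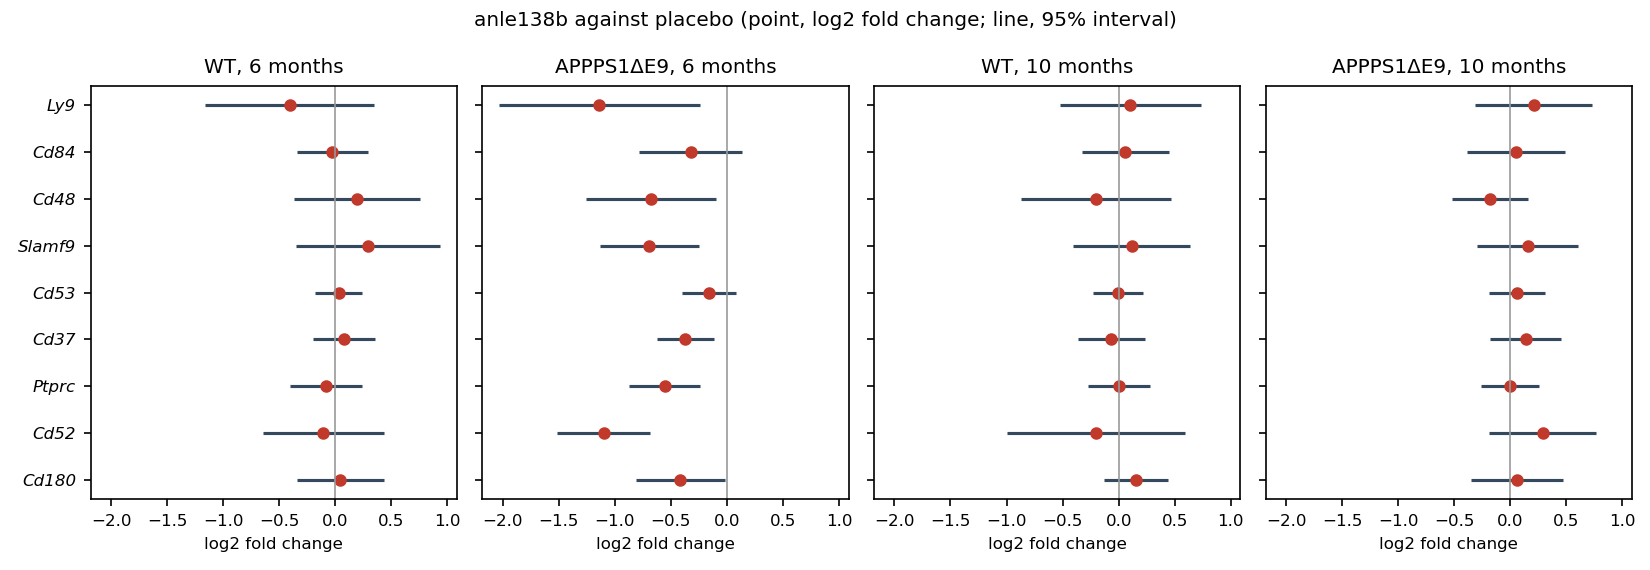
Log2 fold change of anle138b against placebo for the 9 genes within each genotype and cohort, with points for the estimate and lines for the 95% interval. In pre-plaque APPPS1ΔE9 mice 7 of 9 intervals lay below 0, and in the other 3 panels every interval crossed 0.

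In the other groups every interval crossed 0. In pre-plaque WT mice the 9 log2 fold changes lay between -0.41 (Ly9) and 0.29 (Slamf9), with a median of 0.03 without and with the choroid plexus term, and in WT mice of the post-plaque group between -0.20 (Cd52) and 0.16 (Cd180). In post-plaque APPPS1ΔE9 mice they lay between -0.18 ± 0.16 (Cd48) and 0.29 ± 0.22 (Cd52), with the interval of Cd52 from -0.19 to 0.76 and that of Ly9 from -0.31 to 0.73. In these 3 comparisons 0% of all genes were called by edgeR. Unadjusted p-values under 0.05 were found for 310, 212 and 254 genes in the order given, and DESeq2 called 2, 0 and 0 genes, none of them among the 9.

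Whether anle138b acted differently in the 2 genotypes was measured as an interaction. In the pre-plaque group all 9 interaction terms were negative, with a median of -0.46, and 5 intervals lay below 0. The term of Cd52 was -0.98 ± 0.31 (SE, 95% interval -1.63 to -0.34) and that of Slamf9 -0.98 ± 0.35, while Ly9 had -0.72 ± 0.57, or -0.13 ± 0.44 without placebo-treated APPPS1ΔE9 replicate 4. With the choroid plexus term 3 intervals lay below 0. No gene of the whole table was called (0%), 1390 had an unadjusted p under 0.05, and DESeq2 called 28 but none of the 9. In the post-plaque group the terms lay between -0.10 and 0.49, all with intervals across 0 (0% of all genes called, 407 with an unadjusted p under 0.05, 2 called by DESeq2).

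The genotype difference was then set against age within each chow. With placebo it was larger at 10 months by 0.41 ± 0.44 for Cd52 and 0.43 ± 0.49 for Ly9 on the log2 scale, both with intervals across 0. Without pre-plaque APPPS1ΔE9 replicate 4 on placebo, Ly9 was at 1.03 ± 0.36 with an interval from 0.27 to 1.79. In this comparison 0% of all genes were called (1089 had an unadjusted p under 0.05, and DESeq2 called 16). On anle138b all 9 genes had intervals above 0, and the median was 0.85. Cd52 had the largest value, 1.89 ± 0.33 (SE, 95% interval 1.20 to 2.59), and was the 1 gene of the 9 called, where 0.028% of all genes were called. Its call was lost in 15 of the 20 fits without a single mouse, in which the value stayed between 1.79 and 2.06. It was kept without APPPS1ΔE9 replicate 4, 5 or 6 or WT replicate 3 or 4 of the post-plaque group.

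Over the 8 groups, the mean level of Ly9 rose from 0.447 CPM in anle138b-treated pre-plaque WT mice through 0.587, 0.606 and 0.635 CPM in the other WT groups (placebo at 10 months, placebo at 6 months and anle138b at 10 months) to 0.712 CPM in anle138b-treated pre-plaque APPPS1ΔE9 mice. Then followed 1.56, 2.07 and 2.38 CPM in the placebo-treated pre-plaque, placebo-treated post-plaque and anle138b-treated post-plaque APPPS1ΔE9 mice. Every pair of neighbours in this order overlapped, and no step exceeded the larger SD of its pair. For Cd52, 5 groups lay between 0.854 and 1.13 CPM, namely the 4 WT groups and the anle138b-treated pre-plaque APPPS1ΔE9 mice. The other 3 lay at 2.22, 2.61 and 3.17 CPM, and the step between these sets was the only one without overlap, 2.33 times the larger SD.

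Within groups, the genes varied together to different degrees. As deviations from the group mean in log2 CPM over 38 mice, the 36 pairs had Pearson r from -0.04 to 0.75 with a median of 0.52, a description in which all genes of a mouse share a library. Slamf9 had the lowest r with the mean of the homeostatic microglial markers, 0.16. This r was 0.84 for Cd53, 0.81 for Cd37, 0.80 for Cd84 and 0.70 for Ly9. For Cd52 and Cd180 it was 0.64, for Ptprc 0.61 and for Cd48 0.56. With the plaque-associated mean Slamf9 was also lowest (0.28), followed by Cd180 (0.40) and Cd48 (0.45). Over the 16 pre-plaque mice, r with the log2 choroid plexus sum was 0.15 for Slamf9 and -0.04 for Ptprc. For the other genes it lay between -0.57 (Cd84) and -0.31 (Ly9). Over the 22 post-plaque mice, Slamf9 was lowest (-0.39), and the other genes lay between -0.29 (Cd180) and 0.10 (Cd48). The part of choroid plexus in the shared variation was not tested.

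**Figure D5:**
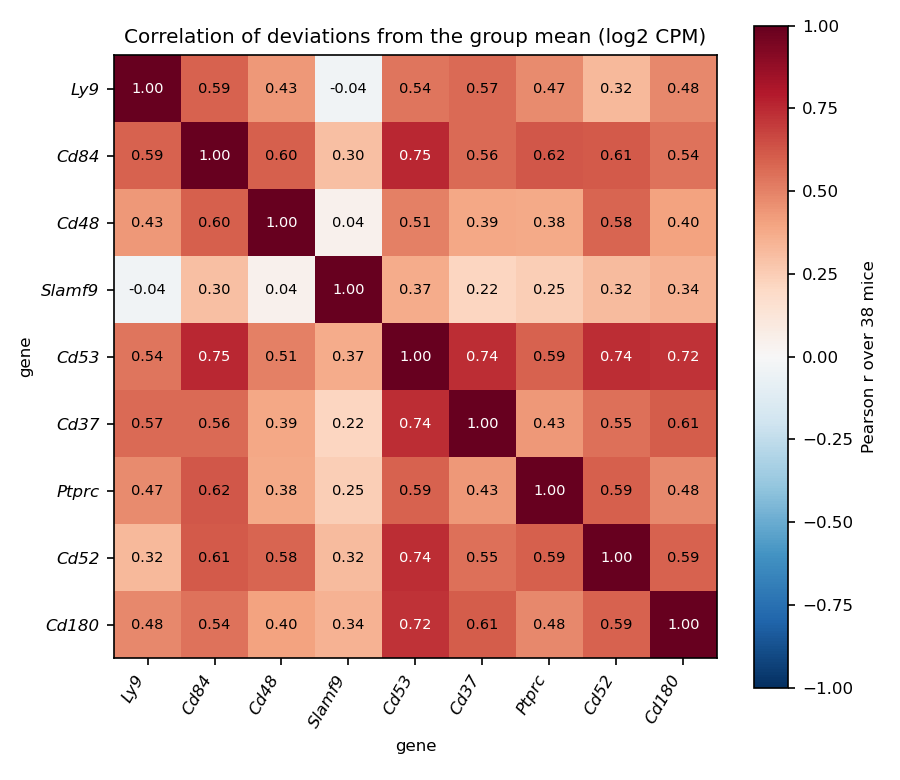
Pearson r between the 9 genes of deviations from the group mean (log2 CPM) over 38 mice, on a colour scale from -1 to 1. The lowest values are those of Slamf9 with Ly9 (-0.04) and Cd48 (0.04). Ly9 with Cd52 (0.32) was below Slamf9 with Cd53 (0.37), and r was between -0.04 and 0.75 over the 36 pairs.

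Of 18231 genes, the 5 most like Ly9 by this measure were C1qb (r = 0.76), Vsir (0.75), Aif1 (0.73), Plek (0.72) and Ctss (0.72). The complement subunit C1qb, Aif1 (the macrophage protein Iba1) and the protease gene Ctss are commonly used as microglial genes. Among those most like Cd52 were Cd53 (r = 0.74), Psmb8 (0.71), B2m (0.69) and Hvcn1 (0.69). Psmb8 encodes a subunit of the immunoproteasome and B2m the light chain of MHC class I. By Spearman's rho, 2 of the 5 for Ly9 stayed among the 5 nearest.

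A list of 36 other genes of the same pathways was followed in the same fits. The list was chosen with earlier results of these data known, so its counts are a description. In placebo-treated post-plaque mice 24 of them could be tested, and 1 was called higher in APPPS1ΔE9 mice, where 0.324% of all genes were. This was Ly86, which encodes MD-1, the partner of CD180 (log2 fold change 0.85 ± 0.12, edgeR adjusted p = 0.0112). Its level was 11.6 ± 1.22 CPM in WT and 20.9 ± 3.11 CPM in APPPS1ΔE9 mice (SD, n = 5 each). On anle138b 25 were tested and 4 were called higher, where 0.694% of all genes were. Besides Ly86 (0.89 ± 0.11, adjusted p = 0.00277) these were Ptpn6, the phosphatase SHP-1 that binds SLAM receptors (0.94 ± 0.14, adjusted p = 0.0083), Itgb2, the beta chain of the leukocyte integrins (0.88 ± 0.14, adjusted p = 0.0129), and Laptm5, a lysosomal membrane protein of blood cells (0.77 ± 0.11, adjusted p = 0.00595), all by edgeR. None of the list was called lower. The medians over the tested list were 0.17 with placebo and 0.26 on anle138b, and 9 of 24 and 10 of 25 intervals lay above 0. The log2 fold change was above 0 for 15 of 24 and 21 of 25 genes, and the lowest values were -0.27 and -0.21.

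In placebo-treated mice Itgb2 (0.85 ± 0.17, edgeR adjusted p = 0.109) and Laptm5 (0.54 ± 0.11, edgeR adjusted p = 0.103) missed the threshold. In the other 6 comparisons of single groups none of the list was called. The adaptor genes Sh2d1a, Sh2d1b1 and Sh2d1b2, through which SLAM receptors signal in lymphocytes, were too low to be tested, with group means of at most 0.103 CPM in post-plaque mice. Among the other SLAM receptors, Slamf1, Slamf7, Slamf8 and Cd244a were not tested on anle138b in the post-plaque group for the same reason, and Slamf6 had 1.39 ± 0.38 (edgeR adjusted p = 0.281).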

How the data were processed

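The authors prepared TruSeq mRNA libraries from hippocampus, aligned reads to mm10 using STAR and obtained gene counts with HTSeq (intersection-nonempty). The deposited values are raw read counts of 48709 genes per mouse, without normalization. The annotation release and strand setting are not given in the sources used here. The members and gene lists were chosen with earlier results of these data known.

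Symbols and positions came from GENCODE M21 (48349 genes matched) and promoters from RefSeq. In R 4.3.3, genes passing filterByExpr (minimum count 10, minimum total 15) were normalized with TMM and fitted with edgeR 4.0.16 (robust dispersions and quasi-likelihood test) for each pair of groups, or over 4 groups for interactions and ages. Benjamini-Hochberg adjusted p-values under 0.1 were called. The study's methods used DESeq2 and 0.05, which were tried as alternatives (DESeq2 1.42.0). Each SE was derived from the estimate and its F statistic. CPM values were computed from total counts, and log2 CPM used TMM and a prior count of 2. Group was taken from sample titles. The libraries are separate mice, so p-values measure the spread between these mice. The fits were tested on simulated data. Named partner genes were those called, with the nearest misses and the untested SLAM adaptors and receptors chosen after their values were seen. The choroid plexus term was chosen after seeing the data. One of the genes nearest to Cd52 is not reported here.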

Additional observations from a re-analysis of the deposited data

Results flagged for a closer look

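In 72 sets of 4 to 7 mice (9 genes in 8 groups), 3 held a mouse far from the rest by Dixon's ratio, the gap to the nearest mouse divided by the range, on TMM-scaled log2 CPM. Chance gives about 1 in 20. Cd52 in placebo-treated pre-plaque APPPS1ΔE9 replicate 4 was at 2.92 CPM with the next mouse on the log2 scale at 1.99 CPM, and the ratio was 0.957. Cd37 in anle138b-treated pre-plaque APPPS1ΔE9 replicate 4 was at 6.30 CPM with the next at 5.33 CPM (ratio 0.974). In anle138b-treated post-plaque WT replicate 3, Cd37 was at 6.67 CPM with the next at 5.57 CPM (ratio 0.71).

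A difference of the genotype effect between ages was called for Cd52 on anle138b. Cd52 was picked for its pattern in these same mice, so the call is a description. It was lost in 15 of the 20 fits without a single mouse and at an adjusted p under 0.05. The genotype difference was larger at 10 than at 6 months by 1.89 on the log2 scale in the fit over 4 groups.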

How the results depend on the processing

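Of the 9 genes, the number called in placebo-treated pre-plaque mice went from 0 to 1 with DESeq2, 3 with no filter on low counts and 1 with all 4 groups in a single fit, and was 0 to 2 over fits without a single mouse. In post-plaque mice it went from 6 to 1 with placebo and from 9 to 1 on anle138b with the replicate block, and from 6 to 1 with Y-linked expression as a term. It was 3 to 5 and 4 to 8 without single mice. With placebo it rose from 6 to 8, with Cd53 and Cd52 added, with DESeq2 and with all 4 groups. For anle138b against placebo in pre-plaque APPPS1ΔE9 mice it went from 0 to 2 with DESeq2 and to 2 with no filter, and was 0 to 1 without single mice. For the genotype effect at 10 against 6 months on anle138b it went from 1 to 2 with DESeq2 and to 0 at an adjusted p under 0.05, and was 0 to 2 without single mice.

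Of the 36 pathway genes, the number called in placebo-treated pre-plaque mice went from 0 to 3 with DESeq2, no filter or all 4 groups (0 to 3 without single mice). In placebo-treated post-plaque mice it went from 1 to 4 with DESeq2, 2 with RLE size factors, 3 with no filter or all 4 groups, and 0 with the block or the Y-linked term (1 to 3 without single mice). On anle138b it went from 4 to 0 with the block, 7 with all 4 groups and 8 with the Y-linked term (4 to 7 without single mice). For anle138b in pre-plaque APPPS1ΔE9 mice it went from 0 to 3 with DESeq2, 2 with no filter and 1 with the block (0 to 3 without single mice). The cause of these changes was not tested.

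No log2 fold change of a called gene turned its sign in any fit. Replicate numbers are running numbers, not shared mice, and same-numbered mice did not all deviate together (r from -0.48 to 0.508 in placebo-treated post-plaque mice), so the block is given here only. Over all genes, calls went from 12 with edgeR to 91 with DESeq2 in placebo-treated pre-plaque mice and from 9 to 208 for anle138b in pre-plaque APPPS1ΔE9 mice, and to 110 and 120 with no filter. With DESeq2 they went from 8 to 42 in pre-plaque mice on anle138b, from 55 to 116 and from 124 to 188 in post-plaque mice on placebo and anle138b, and from 5 to 40 for the genotype effect between ages on anle138b. With the block these 4 counts were 13, 25, 20 and 15. Ly9 and Cd52 have at most 83 and 101 reads in a mouse, which limits their precision.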
